A study of Homo sapiens with 6 samples.

Results

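The genes described here are 9 markers of neuroendocrine secretory granules and cells: CHGA, CHGB, SCG2, SCG3, SCG5, CPE, SYP, ENO2 and NCAM1. They were chosen by name, and all 9 were found among the 47032 gene symbols of the deposited tables, each as a single entry. The RNA came from cultures of 6 established human lines of prostate cancer, each sequenced as 1 library. The castration-sensitive parents are LNCaP (written LnCaP in the labels) and LAPC4, kept in RPMI, and VCaP, kept in DMEM; all had 10% fetal bovine serum. Their castration-resistant partners, which bear the parents' names, are LNCaP-abl, VCaP-CR and LAPC4-CR, and for all of these the medium was RPMI with 1X B27 supplement and 10% serum stripped of steroids with charcoal. None of the lines had any other treatment per the labels. Resistance and medium therefore differed together in every pair, and their parts cannot be told apart.

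Neuroendocrine cells store peptide hormones in dense-core granules. Granins, which are acidic proteins that aggregate in the trans-Golgi network, help to form these granules and to load them, and enzymes inside the granule cut and trim the hormone precursors. In prostate cancer, CHGA, SYP, NCAM1 (CD56) and ENO2 (neuron-specific enolase) are the markers that pathologists use for neuroendocrine differentiation, which can appear in tumours treated by androgen deprivation. The repressor REST keeps many of these genes silent outside neural and endocrine cells by binding a sequence called RE1.

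Total counts ran from 8661337 in LNCaP to 22433655 in LAPC4-CR, and the resistant library was the deeper one of each pair. Levels are given as scaled FPKM, the deposited FPKM (fragments per kilobase of gene, relative to library depth) after division by 1 factor per library. With 1 library per line and state, a difference within a line has no replicate check. Its 95% interval is an exact one that covers counting error only. Prostate epithelial markers were checked by library: all 6 of the luminal markers HOXB13, KRT8, KRT18, KLK3, TMPRSS2 and FOLH1 were tested, and their summed level lay between 129.7 scaled FPKM in VCaP-CR and 890 in LNCaP. Single markers were nearly lost in resistant libraries. KLK3, which encodes prostate-specific antigen, was lower in 3 of 3 pairs: by 940-fold in LNCaP-abl (610 to 0.649 scaled FPKM), 17.1-fold in VCaP-CR and 53.7-fold in LAPC4-CR (edgeR adjusted p 0.591, DESeq2 adjusted p 0.000586). TMPRSS2 was 3.74-fold lower in LNCaP-abl and 89.2-fold lower in LAPC4-CR, HOXB13 was 19.6-fold lower in LAPC4-CR, and FOLH1 was 2.14-fold higher in VCaP-CR. Other markers of the 6 went both ways. KRT8 levels, parent to resistant, were 22.1 to 34.8 (LNCaP), 15.8 to 13.4 (VCaP) and 64.0 to 93.3 scaled FPKM (LAPC4). Those of KRT18 were 31.2 to 23.4, 23.25 to 17.75 and 48.9 to 73.7. HOXB13 went from 58.9 to 65.8 in the LNCaP pair and 43.6 to 35.5 in the VCaP pair. TMPRSS2 went from 14.2 to 19.1 in the VCaP pair. FOLH1 was lower in the resistant library of the other pairs, from 131.3 to 116.7 (LNCaP) and from 41.9 to 25.7 (LAPC4). The part of the falls of KLK3, TMPRSS2 and HOXB13 in the levels of the granule genes was not tested. The check of the VCaP name was ERG, the fusion gene of that line: it had 16.9 scaled FPKM in the parent, 5.46 in VCaP-CR and no more than 0.186 elsewhere.

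The promoters of the genes on which the results turn are shown first. RefSeq promoter windows (build GRCh38.p14, 250 bases before to 50 after the start site) were matched by symbol for 6 of the 9 genes. Of the 9 genes, CHGA had the highest ratio within a pair and CPE was the gene that was higher in all 3 pairs, so a stretch of each is printed, both on the plus strand. Capitals in the CHGA promoter mark the cyclic AMP response element TGACGTCA and the TATA box TATATAA. Capitals in the CPE promoter mark TGACG, the core of that element.
CHGA, chr14:92923030-92923149: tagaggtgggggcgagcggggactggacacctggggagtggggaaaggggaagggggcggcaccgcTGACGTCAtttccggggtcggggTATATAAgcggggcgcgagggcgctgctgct
CPE, chr4:165378778-165378897: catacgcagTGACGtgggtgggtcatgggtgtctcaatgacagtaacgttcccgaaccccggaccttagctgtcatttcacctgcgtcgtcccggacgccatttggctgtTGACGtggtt
TGACGTCA was found, on both strands searched, in 1.98% of 27305 promoter windows, and among the 6 granule genes matched it was found in CHGA alone, starting 54 bases before the start site. TATATAA was found in 2.73% of the windows, and the shorter TGACG, which is part of TGACGTCA, in 25%. TGACG was also found in the windows of SCG3 and SCG5, and not in those of SYP and ENO2.

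The RE1 element was searched as its left arm TTCAGCACC and its right arm GGACAGCGC, on both strands. The left arm was found in 0.403% and the right arm in 0.645% of the windows. Of the 6 granule genes matched, SCG3 had both. With at most 12 bases allowed between the arms, a limit set after the SCG3 sequence was seen, 4 of 27305 windows held the pair. They belonged to SCG3, UNC13A, LHX3 and TPH2. Their elements are printed in the direction in which the left arm comes first, with the arms in capitals, because SCG3 and UNC13A also had like levels across the lines.
SCG3, chr15:51681511-51681536, plus strand: TTCAGCACCcacagggcGGACAGCGC
UNC13A, chr19:17688340-17688365, plus strand: TTCAGCACCgggggcgcGGACAGCGC
LHX3, chr9:136205136-136205155, minus strand: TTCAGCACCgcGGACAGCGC
TPH2, chr12:71938854-71938879, plus strand: TTCAGCACCagggttctGGACAGCGC
The arms lay 8 bases apart in SCG3, UNC13A and TPH2 and 2 apart in LHX3. SCG3 and UNC13A had their highest levels in VCaP-CR, at 16 and 10.2 scaled FPKM, and next in VCaP, at 4.69 and 2.85, with at most 0.489 in the other libraries. TPH2 and LHX3 did not reach the limit used for testing, a mean of 1 scaled FPKM over the libraries. Their highest levels were 1.49 (TPH2 in LAPC4) and 0.677 (LHX3 in VCaP-CR). A match is a description of letters, and binding was not measured.

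The granins were the genes with the clearest pattern. CHGA (chromogranin A, ENSG00000100604, chromosome 14, 92459178 to 92471391 in hg18, the build the files use) is the most widely used granule marker. It had 11 counts in LNCaP against 8 in LNCaP-abl, 72 in VCaP against 1075 in VCaP-CR, and 19 in LAPC4 against 24 in LAPC4-CR. These were 0.383, 0.218, 2.37, 21.6, 0.474 and 0.311 scaled FPKM. VCaP-CR stood highest and VCaP next, and the other 4 libraries lay close together: no neighbours among them in order of level were separated by their counting intervals. In the VCaP pair CHGA was 9.11-fold higher in the resistant library (95% interval 7.17 to 11.7). The ratio was 0.569 in the LNCaP pair (0.199 to 1.55) and 0.656 in the LAPC4 pair (0.344 to 1.27), and both intervals include 1.

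SCG3 (secretogranin III, ENSG00000104112, chromosome 15, 49760842 to 49800520), which binds CHGA and the granule membrane, had 15, 11, 152, 850, 10 and 25 counts in the same order of libraries. Its level was 0.489 scaled FPKM in LNCaP against 0.281 in LNCaP-abl, 4.69 in VCaP against 16 in VCaP-CR, and 0.234 in LAPC4 against 0.303 in LAPC4-CR. The VCaP libraries again stood apart from the other 4, with VCaP 9.59 times the highest of these. SCG3 was 3.41-fold higher in VCaP-CR than in VCaP (2.87 to 4.08). In the LNCaP and LAPC4 pairs the ratios were 0.574 (0.239 to 1.34) and 1.30 (0.602 to 3.03).

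CHGB (chromogranin B, ENSG00000089199, chromosome 20, 5840076 to 5854007), a second granin cargo of the granule, was at 0.452 scaled FPKM in LNCaP against 0.317 in LNCaP-abl, 1.71 in VCaP against 4.51 in VCaP-CR, and 0.324 in LAPC4 against 0.301 in LAPC4-CR. The order was that of CHGA at its top, with VCaP-CR above VCaP and the other 4 not separated by neighbours. VCaP-CR exceeded VCaP 2.63-fold (2.05 to 3.42), from 76 to 328 counts.

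SCG2 (secretogranin II, ENSG00000171951, chromosome 2, 224169902 to 224175465), the precursor of the peptide secretoneurin, differed from those granins in the parental line. It was at 0.357 scaled FPKM in LNCaP against 0.435 in LNCaP-abl, 0.414 in VCaP against 3.55 in VCaP-CR, and 0.484 in LAPC4 against 0.325 in LAPC4-CR. VCaP itself lay among the low libraries, and VCaP-CR alone was high. The ratio in the VCaP pair was 8.59 (4.67 to 17.6), from 11 to 155 counts.

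**Figure D1:**
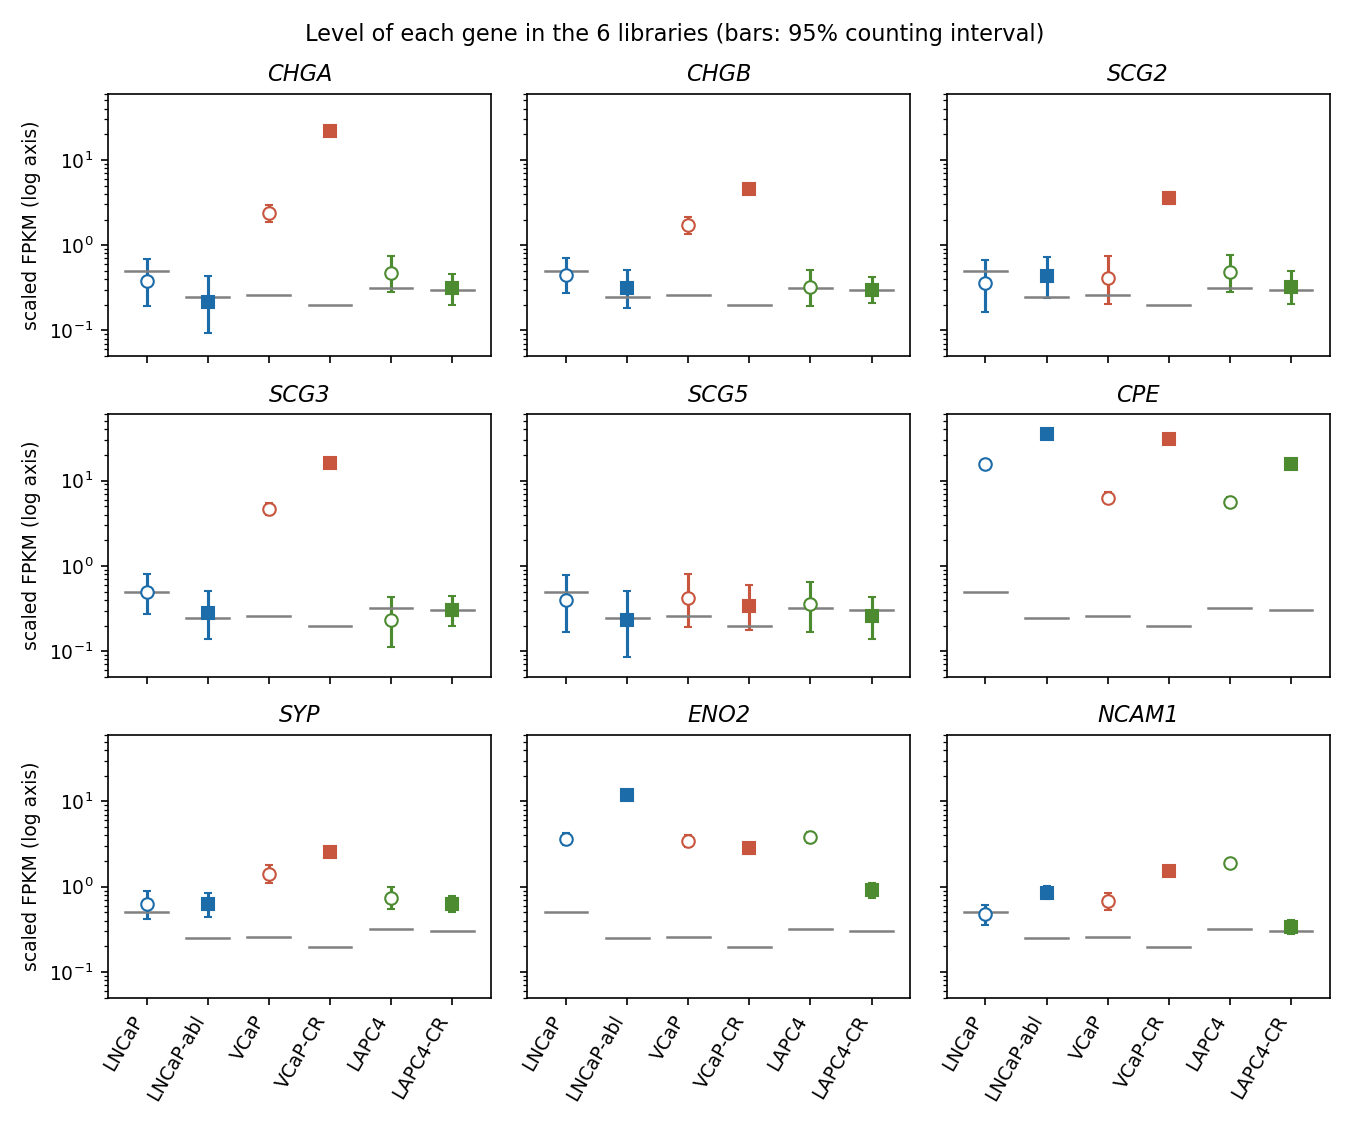
Level of each of the 9 genes in scaled FPKM (log axis) in each library, with 1 point per library and bars for the exact 95% counting interval. Open circles are castration-sensitive and filled squares castration-resistant lines, and grey lines mark the median of 10 leukocyte and endothelial markers in that library. CHGA, CHGB, SCG2, SCG3 and SYP reach their highest level in VCaP-CR, and CPE lies above the grey line in all libraries.

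The low values had a background measured in the same way. Of the leukocyte and endothelial markers fixed for this check, 10 were found, and these genes are not expected in an epithelial line. Their median was between 0.197 scaled FPKM in VCaP-CR and 0.50 in LNCaP, and their highest was 1.99, for CD68 in LNCaP-abl. Single markers set the highest level in a library, such as VWF at 1.36 in LNCaP and KDR at 1.53 in LAPC4. CHGA, CHGB, SCG2, SCG3, SCG5 and SYP were at or under the highest of these markers in LNCaP, LNCaP-abl, LAPC4 and LAPC4-CR. So was NCAM1 in LNCaP, LNCaP-abl and LAPC4-CR, and so were SCG2, SCG5 and NCAM1 in parental VCaP. The granin levels in the LNCaP and LAPC4 pairs were thus within the range of genes of other cell types there. In VCaP-CR, SCG5 was the one gene of the 9 under that level. SYP and NCAM1 were in part above the marker medians. The interval of SYP began at 0.437 in LNCaP-abl (median 0.248), 0.552 in LAPC4 (0.319) and 0.504 in LAPC4-CR (0.302). In LNCaP it included the median. That of NCAM1 began at 0.707 in LNCaP-abl and 0.536 in parental VCaP (median 0.258), and included the median in LNCaP and LAPC4-CR. Fewer cells expressing a gene and less RNA per cell cannot be told apart in these bulk libraries.

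The genes that act on granule contents went separate ways. CPE (carboxypeptidase E, ENSG00000109472, chromosome 4, 166501796 to 166638922) trims basic residues from the ends of cut hormone precursors. It had 434 counts in LNCaP against 1241 in LNCaP-abl, 183 in VCaP against 1474 in VCaP-CR, and 215 in LAPC4 against 1160 in LAPC4-CR. The levels were 15.8, 35.5, 6.32, 31.1, 5.63 and 15.8 scaled FPKM, the highest of the 9 genes in every library. Each resistant library exceeded its parent, although LAPC4-CR and LNCaP were at the same level, so the states overlap when lines are mixed. The ratio was 2.24 (2.01 to 2.50) in the LNCaP pair, 4.91 (4.21 to 5.76) in the VCaP pair and 2.80 (2.42 to 3.26) in the LAPC4 pair. On the log2(scaled FPKM + 1) scale the mean change was 1.53 ± 0.53 (SD, n = 3 pairs). A pseudogene inside the CPE locus, HADHAP1, had between 44 and 130 counts, and how the counting divided reads there is not given.

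SCG5 (7B2, ENSG00000166922, chromosome 15, 30721169 to 30776591), the chaperone of the hormone-cutting protease PCSK2, had between 6 and 14 counts in a library. Its level was 0.394 scaled FPKM in LNCaP against 0.231 in LNCaP-abl, 0.420 in VCaP against 0.341 in VCaP-CR, and 0.353 in LAPC4 against 0.257 in LAPC4-CR. No difference between neighbours in that order, or within a pair, was detectable at this depth. In the VCaP pair, where the granins differed, its ratio was 0.813 (0.314 to 2.19).

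SYP (synaptophysin, ENSG00000102003, chromosome X, 48931213 to 48943662), a membrane protein of small secretory vesicles, was at 0.623 scaled FPKM in LNCaP against 0.617 in LNCaP-abl, 1.41 in VCaP against 2.53 in VCaP-CR, and 0.744 in LAPC4 against 0.634 in LAPC4-CR. The order at its top was that of CHGA, over a narrower range: VCaP-CR was 3.40 times the highest library of the other lines. The ratio in the VCaP pair was 1.79 (1.36 to 2.37). In the LNCaP and LAPC4 pairs it was 0.992 (0.598 to 1.66) and 0.852 (0.592 to 1.24).

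ENO2 and NCAM1, which are not granule proteins, did not share that order. ENO2 (ENSG00000111674, chromosome 12, 6893170 to 6903122), a glycolytic enolase of neurons and neuroendocrine cells, was at 3.63 scaled FPKM in LNCaP against 12 in LNCaP-abl, 3.46 in VCaP against 2.81 in VCaP-CR, and 3.77 in LAPC4 against 0.902 in LAPC4-CR. The parents LAPC4, LNCaP and VCaP were not separated as neighbours, while LNCaP-abl stood highest and LAPC4-CR lowest. LNCaP-abl was 3.30-fold above LNCaP (2.75 to 3.97), and LAPC4-CR was 4.19-fold below LAPC4 (3.28 to 5.37). VCaP-CR over VCaP gave 0.812 (0.653 to 1.01). ENO2 made up 1.41% of the summed level of ENO1, ENO2 and ENO3 in LNCaP and 6.57% in LNCaP-abl, and 1.22% in LAPC4 and 0.605% in LAPC4-CR. ENO1, the enolase of most tissues, was also lower in LAPC4-CR, by 2.06-fold (304 to 147 scaled FPKM). LRRC23, which overlaps the start of ENO2, had 85 counts in LAPC4 and 124 in LAPC4-CR, where ENO2 had 213 and 98. Elsewhere LRRC23 had 34 to 79 counts. How the counting divided reads between these 2 genes is not given.

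NCAM1 (ENSG00000149294, chromosome 11, 112337207 to 112654368), a neural cell adhesion molecule, was at 0.474 scaled FPKM in LNCaP against 0.848 in LNCaP-abl, 0.673 in VCaP against 1.5 in VCaP-CR, and 1.90 in LAPC4 against 0.337 in LAPC4-CR. The highest level was in a castration-sensitive line, LAPC4, and the lowest in its resistant partner, from 314 to 107 counts. LAPC4-CR was 5.65-fold below LAPC4 (4.52 to 7.11). The ratio was 1.79 (1.30 to 2.50) in the LNCaP pair and 2.24 (1.75 to 2.88) in the VCaP pair.

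**Figure D2:**
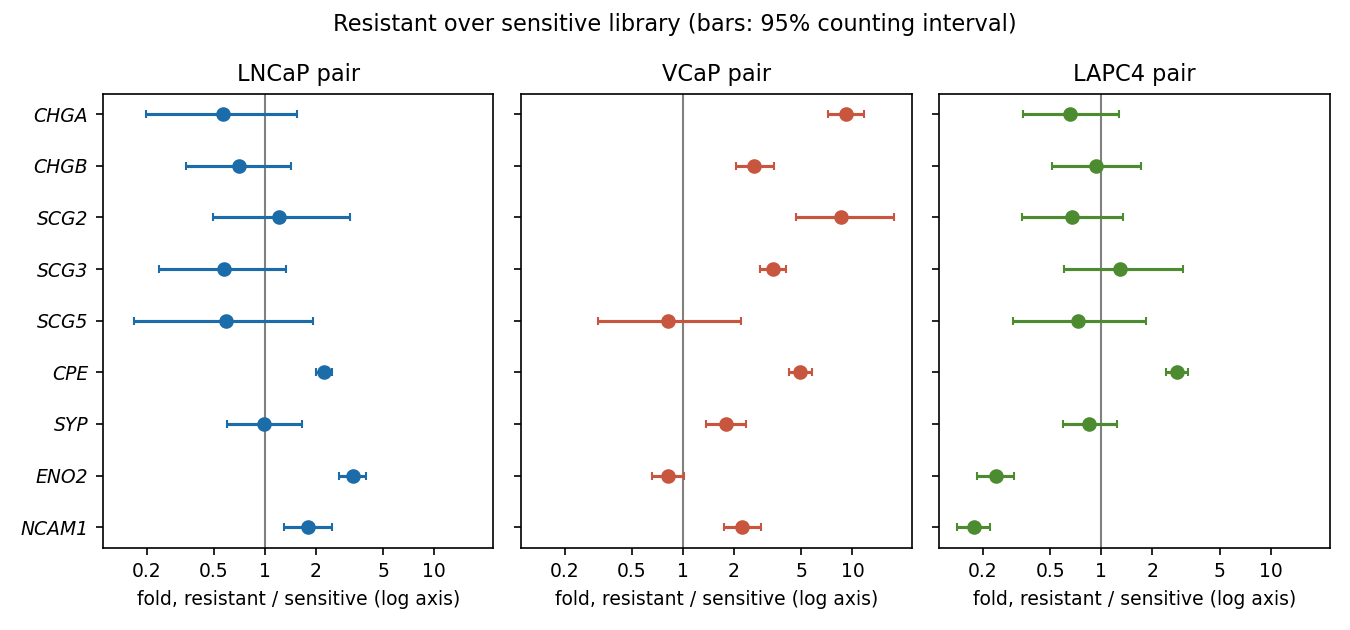
Ratio of the resistant to the sensitive library (log axis) for each gene in each of the 3 pairs, with exact 95% counting intervals. Intervals lie above 1 for 7 of 9 genes in the VCaP pair, for 3 in the LNCaP pair and for CPE alone in the LAPC4 pair.

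A change of at least 2-fold on the log2(scaled FPKM + 1) scale was then counted in each pair, beside the share of all 16230 genes tested. In the VCaP pair 5 of 9 genes were at least 2-fold higher (CHGA, CPE, SCG2, SCG3 and CHGB), against 2.36% of the genes tested, and 0 were lower, against 2.03%. Of all genes with any count, the background for a list that also holds low genes, 1.17% were higher and 1.12% lower. CHGA and CPE had the largest log2 changes there, at 2.74 and 2.13, and CHGB was just past the limit at 1.02. In the LNCaP pair CPE and ENO2 were higher, 2 of 9 against 6.24%, and 0 were lower, against 6.19% (2.92% and 3.08% of genes with any count). In the LAPC4 pair CPE alone was higher, 1 of 9 against 5.22%, and ENO2 and NCAM1 were lower, 2 of 9 against 5.27% (2.27% and 2.42% of genes with any count). The median log2 change of all 9 genes was 1.02 in the VCaP pair, against -0.01 over all genes tested. It was -0.0046 in the LNCaP pair and -0.11 in the LAPC4 pair, against -0.01 and -0.02. By counting interval, 7 of 9 ratios lay above 1 in the VCaP pair, as did 23.1% of all genes tested, and 0 below, as did 23.8%. In the LNCaP pair 3 lay above and 0 below, against 31.2% and 27.8%, and in the LAPC4 pair 1 above and 2 below, against 31.3% and 31.7%. VCaP-CR was the highest and VCaP the second highest library for CHGA, CHGB, SCG3 and SYP, as for 8.95% of the genes tested. CPE was at least 2-fold higher in all 3 pairs, as were 0.0616% of the genes tested. That CPE was higher in the 3 pairs, and neuroendocrine genes with CHGA in VCaP-CR, was known when the genes were chosen, so these counts are not independent evidence.

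**Figure D3:**
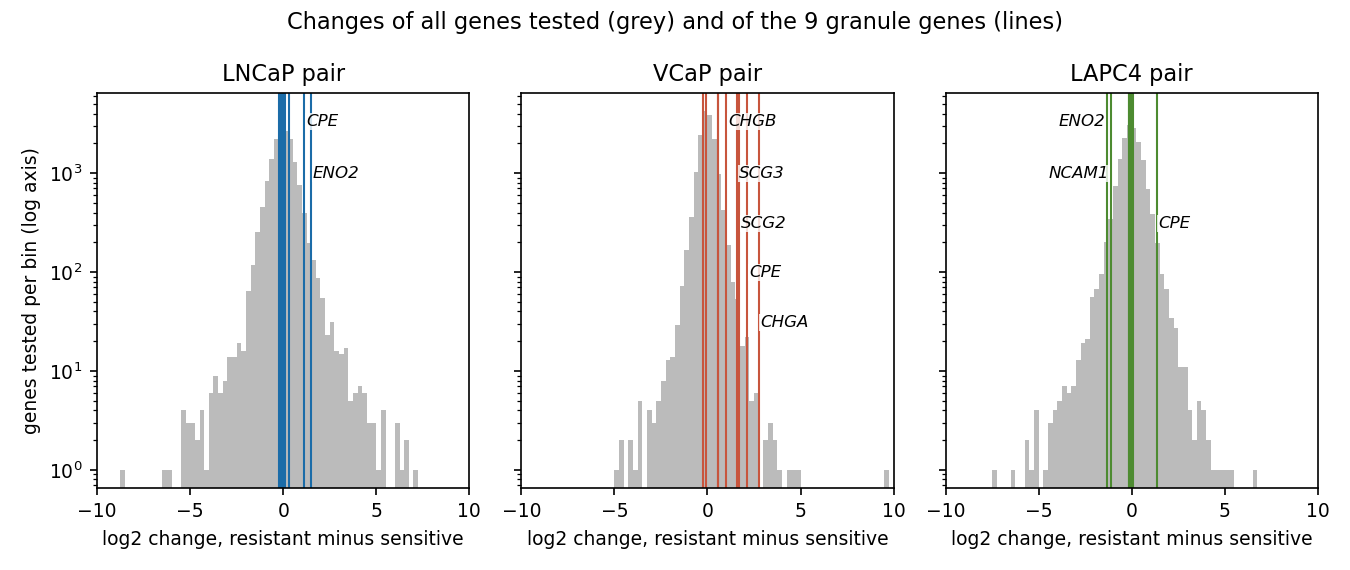
Histograms of the log2 change, resistant minus sensitive, of all 16230 genes tested in each pair (genes per bin on a log axis). Coloured lines mark the 9 granule genes, and those changed at least 2-fold are named. In the VCaP pair 5 lines lie at or past 1, and in the LNCaP and LAPC4 pairs most lie near 0.

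Of the 6 fibroblast markers, LUM, DCN and COL1A1 were higher with the granins in the VCaP pair, and COL1A2, COL3A1 and PDGFRB were lower. LUM (lumican), fixed as a fibroblast marker, had 3.94 scaled FPKM in parental VCaP against 50.2 in VCaP-CR, 12.7-fold higher (10.6 to 15.5). The summed level of the 6 fibroblast markers, LUM included, was 5.28 in VCaP, 51.7 in VCaP-CR and between 1.89 and 3.23 in the other lines. DCN (decorin) was 1.99-fold higher in VCaP-CR (1.28 to 3.18), from 0.341 to 0.679. That DCN level was near the highest leukocyte or endothelial marker in VCaP-CR, at 0.609, and near the 0.6145 of DCN in LNCaP. From VCaP to VCaP-CR, COL1A1 went from 0.168 to 0.256 and COL1A2 from 0.447 to 0.289. COL3A1 went from 0.195 to 0.128 and PDGFRB from 0.190 to 0.145. The leukocyte and endothelial markers did not move with the granins, with summed levels of 1.93 and 1.03 in VCaP and 1.76 and 0.761 in VCaP-CR. The part of cells expressing LUM and DCN in the granin levels was not tested.

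The question of a common difference between states was addressed with the 3 pairs together. EdgeR's quasi-likelihood test with the parental line as a block, adjusted over all genes tested, called 0 of the 6 granule genes that passed the limit of 1 scaled FPKM on average, and 0% of all genes in either direction. At an unadjusted p under 0.05 edgeR had 727 genes higher and 549 lower, CPE among the former, and limma called 0 after adjustment. The edgeR log2 change of CPE was 1.65 with an SE of 0.30 and an adjusted p of 0.591, and CPE was higher in 3 of 3 pairs. DESeq2, which called 0.505% of genes higher and 0.339% lower, gave CPE an adjusted p of 0.00199. With low genes kept in, edgeR called 0.228% of genes higher and 0.139% lower, and CPE had 0.011. Over all alternatives the adjusted p of CPE ran from 0.00199 to 1.00, so its call changed with the program and with the gene set. The edgeR log2 changes of CHGA, SCG3, CHGB and SYP were 0.83, 0.64, 0.35 and 0.22, each with an adjusted p of at least 0.785. Without the VCaP pair all 4 turned negative, at -0.66, -0.17, -0.27 and -0.10. ENO2 had -0.20 (adjusted p 0.962).

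SCG2, SCG5 and NCAM1 did not pass the limit and were tested without a filter only. Their edgeR log2 changes there were 1.17 for SCG2, -0.32 for SCG5 and 0.10 for NCAM1, with adjusted p of 0.63, 0.985 and 0.996. CHGA, CHGB, SCG3 and SYP passed the limit only through the VCaP libraries. In the other 4 libraries CHGA, CHGB and SCG3 were below 0.5 scaled FPKM and SYP was at most 0.744.

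A second test asked which genes differed between the parental lines, with the parent and the resistant library of a line as its samples. In the edgeR fit of all genes without a filter, which holds all 9, it called 11.8% of genes. With 2 libraries per line, edgeR draws much of the spread of a gene from the other genes. The weight of these (prior degrees of freedom) was 23.58 in this fit and 4.63 in the filtered fit. Its p-values therefore do not measure the spread between replicates of a line. The adjusted p was 1.58e-07 for SCG3, 1.08e-05 for CHGA, 6.47e-05 for CHGB, 0.0297 for SYP and 0.0339 for SCG2. That is 5 of 9 genes called. The call of SCG2 rests on VCaP-CR alone, at 3.55 scaled FPKM. Parental VCaP, at 0.414, lay within the 0.325 to 0.484 of the other lines. CPE, ENO2, NCAM1 and SCG5 had 0.0854, 0.115, 0.778 and 0.945. In the filtered fit, which called 12.7% of genes, SCG3, CHGB, CHGA and SYP had 0.00849, 0.0225, 0.0373 and 0.0733. These genes entered that fit only through the VCaP libraries, so its values are a description and support no difference between lines. Mean levels of the LNCaP, VCaP and LAPC4 lines were 0.300 ± 0.117, 12 ± 13.6 and 0.393 ± 0.115 scaled FPKM for CHGA (SD, n = 2 libraries each). For SCG3 they were 0.385 ± 0.147, 10.3 ± 7.99 and 0.268 ± 0.0493. On the filtered genes limma gave CHGA 0.0764 and CHGB 0.0586, and edgeR with protein-coding genes alone gave CHGA 0.0575. Without the VCaP pair CHGA, CHGB and SCG3 had 0.844, 0.900 and 0.832.

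The machinery that releases granules was described from lists that were not picked for how they moved here, though they were drawn up with earlier results known. Of 23 genes of regulated exocytosis, 15 were tested, and edgeR called 0 between states (0 also at an unadjusted p under 0.05, and 0 with DESeq2). Since CADPS, UNC13A, RIMS2 and CPLX2 passed the limit through the VCaP libraries alone, the test between parental lines is given without a filter, here and for the lists that follow. It called 10 of the 23, against 11.8% of all genes: SNAP25, CADPS, CADPS2, UNC13A, RIMS1, RIMS2, CPLX1, CPLX2, SCAMP5 and SYNGR3. UNC13A (Munc13-1), which primes vesicles for release, was at 2.85 scaled FPKM in parental VCaP, 10.2 in VCaP-CR and no more than 0.384 elsewhere. CPLX2 (complexin 2), which clamps the fusion machinery, was at 2.23 and 6.90, with at most 0.365 elsewhere. These were the largest increases of the list by log2 change in the VCaP pair, at 3.59-fold (3.18 to 4.07) and 3.09-fold (2.60 to 3.70). CADPS, which primes dense-core granules, was at 2.76 in VCaP and 5.38 in VCaP-CR, with at most 0.405 elsewhere. RIMS1, a scaffold of release sites, went another way: it was at 6.32 in LNCaP and 31 in LNCaP-abl, but at 2.26 in VCaP against 1.63 in VCaP-CR, and at 1.42 in LAPC4 against 4.15 in LAPC4-CR. SYNGR3, a relative of SYP, was at 1.11 in LNCaP against 10.8 in LNCaP-abl, and at 10.5 in LAPC4 against 1.43 in LAPC4-CR. UNC13B led the LAPC4 pair, at 4.44-fold (3.96 to 4.99).

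**Figure D4:**
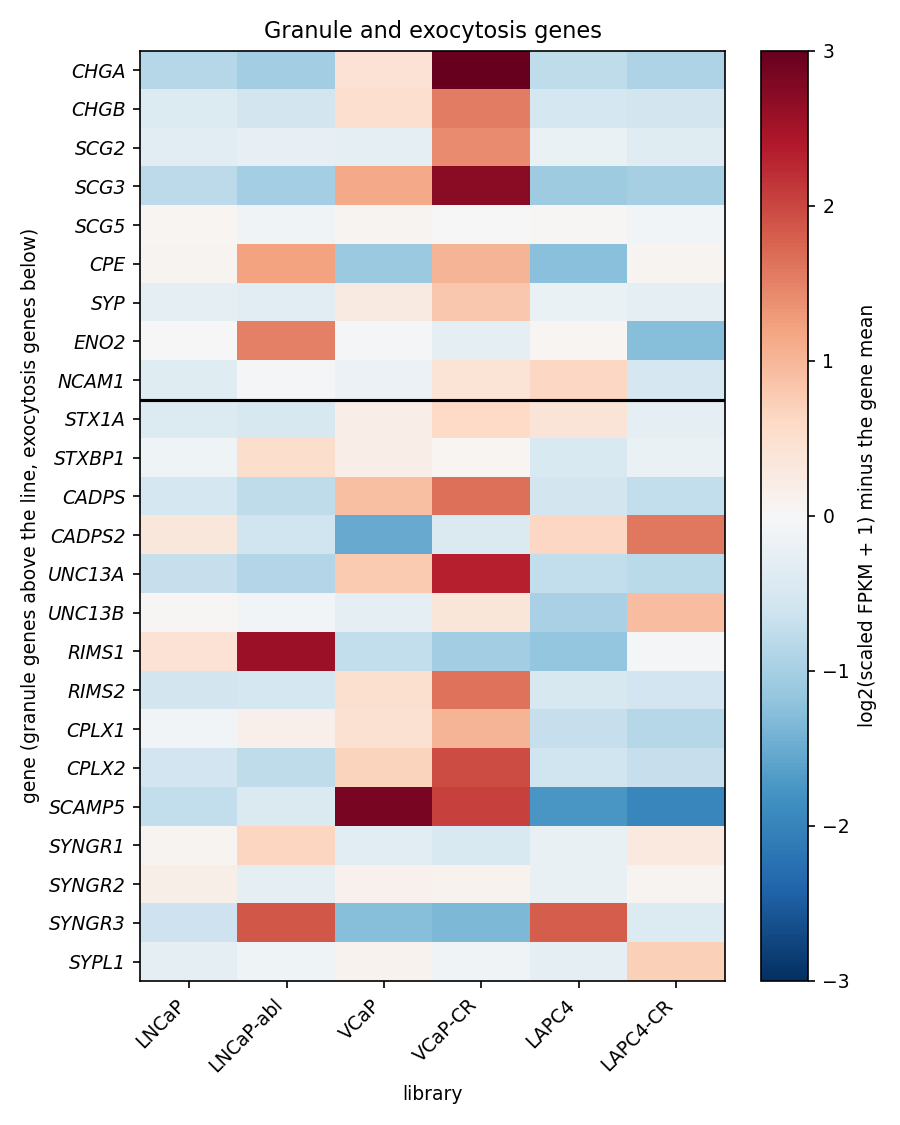
Level of the 9 granule genes (above the line) and of the 15 tested genes of regulated exocytosis (below it) in each library, as log2(scaled FPKM + 1) minus the gene's mean over the 6 libraries. CHGA, CHGB, SCG3, UNC13A, CPLX2, CADPS and RIMS2 are highest in VCaP-CR and next highest in VCaP, while RIMS1 is highest in LNCaP-abl.

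Of 23 genes of granule membranes and trafficking, 13 were tested. EdgeR called 0 between states (1 higher and 1 lower at an unadjusted p under 0.05, 0 with DESeq2), and without a filter 9 of the 23 between parental lines, against 11.8% of all genes: PTPRN2, CYB561, SYT4, SYT5, SYT7, RAB3B, RAB3D, SYTL4 and SYTL5. PTPRN2 (phogrin), a granule membrane protein, was at 15.4 scaled FPKM in parental VCaP, 12 in VCaP-CR and no more than 0.798 elsewhere, so it was not higher in the resistant library as the granins were. SYT4, a synaptotagmin of granules, was at 8.44 in LNCaP and 0.289 in LNCaP-abl, and at 1.95 in VCaP and 10.5 in VCaP-CR. RAB27B, a GTPase that docks granules, had the largest difference of the list in the LAPC4 pair, from 24 to 2583 counts (0.265 to 14.8 scaled FPKM), and it was 2.60-fold higher in the LNCaP pair (2.12 to 3.21). VAMP2, a fusion protein of the vesicle, was 2.43-fold higher in the LNCaP pair (1.87 to 3.19). In the LAPC4 pair SYT5 went from 5 to 217 counts, and RAB3B was 3.24-fold lower, from 6.36 to 1.96 scaled FPKM. SYT5 was at most 0.379 scaled FPKM outside LAPC4-CR, so its call between parental lines rests on that library. SYTL5 was 3.03-fold lower in the VCaP pair, from 4.14 to 1.36.

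Of 10 genes of hormone precursor processing, 7 were tested, with 0 called between states by edgeR (0 at an unadjusted p under 0.05, 0 with DESeq2) and, without a filter, 5 of the 10 between parental lines, against 11.8% of all genes: PCSK1N, PAM, QPCT, CPD and PCSK6. The granule convertases PCSK1 and PCSK2, which cut the precursors that CPE trims, were at most 0.289 and 0.667 scaled FPKM in any library and were not tested. PAM, which amidates peptide ends, was at 5.93 in LAPC4 and 6.70 in LAPC4-CR, against at most 0.837 elsewhere. QPCT, which cyclises the amino end of peptides, was at 3.15 in VCaP and 5.88 in VCaP-CR, against at most 0.911 elsewhere. FURIN, a convertase of the constitutive pathway, was 5.58-fold higher in LNCaP-abl (4.50 to 6.99), and CPD, a carboxypeptidase of the trans-Golgi network, 2.22-fold higher in LAPC4-CR (2.14 to 2.30).

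Of 20 peptide hormone genes, 7 were tested in the fit with a filter. EdgeR called 0 between states (0 higher and 1 lower at an unadjusted p under 0.05), and DESeq2, like edgeR without a filter, called NPY lower. Without a filter 5 of the 20 were called between parental lines, against 11.8% of all genes: VGF, NTS, ADM, NPY and PTHLH. NTS and PTHLH were high in LNCaP-abl alone and ADM in LAPC4 alone, so each of these calls rests on 1 library. PTHLH had 79 counts in LNCaP-abl against 11 in LNCaP. VGF, a granin-like precursor, was at 4.88 scaled FPKM in parental VCaP, 13.0 in VCaP-CR and no more than 0.830 elsewhere, and it was lower in LAPC4-CR than in LAPC4, with a ratio of 0.394 (0.216 to 0.710). NPY (neuropeptide Y) had the opposite direction in that pair, from 86.0 in VCaP to 8.19 in VCaP-CR, 10.5-fold lower (775 to 121 counts). NPY was at most 0.420 in the other lines, and its edgeR log2 change was -2.84 (edgeR adjusted p 0.591, DESeq2 adjusted p 0.00488). It passed the limit only through the VCaP libraries, with 2 and 0 counts in the LNCaP pair and 5 and 4 in the LAPC4 pair. Its call between states thus rests on the VCaP pair and shows no common difference over the 3 pairs. GAL (galanin) had 237 counts in LNCaP against 4 in LNCaP-abl and was 2.32-fold higher in LAPC4-CR (1.90 to 2.86). NTS (neurotensin) went from 3 to 112 counts in LNCaP-abl, a ratio of 29.2 (9.75 to 144), and NMB (neuromedin B) from 14 to 227. ADM (adrenomedullin) was 10.7-fold lower in LAPC4-CR, from 10.9 to 1.02 scaled FPKM.

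Of 15 transcription factors and cofactors linked to neuroendocrine cells, 5 were tested, 0 were called between states by edgeR (0 at an unadjusted p under 0.05, 0 with DESeq2), and without a filter 4 of the 15 were called between parental lines, against 11.8% of all genes: INSM1, ONECUT2, MYT1 and HES1. MYT1 and ONECUT2 shared the top of the order with CHGA: MYT1 was at 2.36 scaled FPKM in VCaP-CR, 1.97 in VCaP and at most 0.718 elsewhere, and ONECUT2 at 3.14, 2.22 and at most 1.18. Within the VCaP pair the ratio of MYT1 was 1.2 (0.951 to 1.52) and that of ONECUT2 1.42 (1.25 to 1.61). INSM1, a driver of neuroendocrine fate, had 3.51 scaled FPKM in parental VCaP against 1.35 in VCaP-CR, which is the reverse of CHGA in that pair. SOX2 was 5.35-fold higher in LAPC4-CR (2.79 to 11.5), from 10 to 103 counts. HES1, a repressor that is a Notch target, was at 14.0 in LAPC4 and 8.85 in LAPC4-CR, and it was 2.64-fold higher in LNCaP-abl (1.87 to 3.8). REST was at 12 scaled FPKM in LNCaP against 13.9 in LNCaP-abl, 5.62 in VCaP against 4.90 in VCaP-CR, and 8.16 in LAPC4 against 11.6 in LAPC4-CR. It was lowest in the VCaP libraries, but in the filtered edgeR fit the test between parental lines gave an adjusted p of 0.0779. The edgeR test between states in that fit gave an adjusted p of 0.871.

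Genes with a pattern like that of each tested granule gene were listed by Pearson's r of log2(scaled FPKM + 1) over the 6 libraries, among 5005 protein-coding genes that vary. For CHGA, CHGB, SCG3 and SYP the VCaP libraries stand apart, so a high r of these genes rests on those libraries. Each r is a description without a p. CHGB was most like UNC13A (r = 0.999) and PHYHIPL (0.999), and SYP most like RIMS2 (0.998) and CPLX2 (0.997). CHGA was most like A1CF (0.995) and MEP1A (0.994), and SCG3 most like MYBPC1 (0.998) and BICC1 (0.997). ENO2 was most like USP54 (0.995) and DOCK4 (0.984), which like ENO2 were highest in LNCaP-abl and lowest in LAPC4-CR. CPE had no such close neighbour: ROCK2 (0.934) and KIAA0776 (0.930) came nearest.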

How the data were processed

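The deposited table of each library holds 51698 genes. Per the file headers it gives each gene a count and an FPKM; HTSeq and genome build hg18 are named in the submitters' processing notes, and the labels' protocols name RNeasy columns and the SOLiD Total RNA-Seq kit. The deposited FPKM was rebuilt within 1% for 100% of genes as count over gene length and summed counts. Not given in the sources used here are the aligner, the annotation, the use of strand and the handling of multi-mapping reads.

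Entries classed as small RNA or mitochondrial (8764) were left out and entries sharing a symbol were summed, leaving 42886 symbols. Each library's FPKM was scaled by its median ratio to the all-library geometric mean (11599 genes with 1 FPKM or more throughout). The 16230 genes whose mean scaled FPKM reached 1 were tested with edgeR 4.0.16 (quasi-likelihood, TMM, parental line as block, Benjamini-Hochberg, 5%) in R 4.3.3. Limma 3.58.1 and DESeq2 1.42.0 were alternatives. Ratios have exact 95% conditional intervals, and they cover counting error only, since reads without molecular identifiers are not independent molecules. Nothing says whether the lines were cultured in replicate.

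Groups come from the labels and pairs from the line names. As a check, deviations from the state means correlated within pairs at 0.46 (LNCaP), 0.73 (VCaP) and 0.59 (LAPC4), against -0.48 to -0.06 between lines. The 9 genes, the lists and the tests were chosen with earlier results of these data known. Named from each list were the genes called between states, those changed at least 2-fold the same way in all pairs and, per pair, the 2 largest rises and falls past 2-fold; other genes (such as CADPS, PTPRN2, PAM, QPCT, PCSK1, PCSK2, INSM1, MYT1, ONECUT2, HOXB13, DCN, REST, INA, LHX3, TPH2, and those listed only as called between lines) were named after their values were seen. Some genes of the lists are not reported here. The edgeR script was tested on simulated data.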

Additional observations from a re-analysis of the deposited data

Results flagged for a closer look

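The genes named here moved in opposite directions in different lines, with both counting intervals away from 1. They are not all of the genes that did so. For example, DDC was higher in LNCaP-abl and lower in VCaP-CR, and NMB was higher in LNCaP-abl and lower in LAPC4-CR. Whether the lines differ was not tested, because a state had a single library in each line. ENO2 was higher in LNCaP-abl and lower in LAPC4-CR, and its log2 changes there differed by 2.81 (LNCaP minus LAPC4). NCAM1 was higher in LNCaP-abl and VCaP-CR and lower in LAPC4-CR, with differences of 1.45 (LNCaP minus LAPC4) and 1.70 (VCaP minus LAPC4). SYT4 was lower in LNCaP-abl and higher in VCaP-CR (LNCaP minus VCaP -4.84). SYNGR3 was higher in LNCaP-abl and lower in LAPC4-CR (4.72), and GAL was the reverse (-5.15).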

How the results depend on the processing

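EdgeR's 0 higher and 0 lower genes between states became 95 and 58 without a filter on low values and 82 and 55 with DESeq2. With 1 pair left out there were 0 to 13 higher and 1 to 20 lower genes, with 13 and 20 without VCaP and VCaP-CR. The fit that ignores the pairing, with no replicate block, called 0 and 0 and changed no call of a granule gene; without the block the edgeR log2 change went from 0.83 to 2.80 for CHGA, 0.35 to 1.06 for CHGB, 0.64 to 1.64 for SCG3, 0.22 to 0.46 for SYP and -0.20 to 0.53 for ENO2. The 2066 genes that differed between parental lines became 4898 without a filter, 3974 with DESeq2, 1294 among protein-coding genes and 673 (without the VCaP pair) to 3591 (without the LNCaP pair) with 1 pair left out. With 1 pair left out the edgeR log2 change ran from -0.66 to 1.77 for CHGA, -0.27 to 0.76 for CHGB, -0.17 to 1.26 for SCG3 and -0.10 to 0.45 for SYP, each lowest without the VCaP pair, and from -1.16 to 0.73 for ENO2, highest without the LAPC4 pair. A pseudocount of 5 lowered the genes at least 2-fold higher to 0 of 2 (LNCaP pair), 3 of 5 (VCaP pair) and 0 of 1 (LAPC4 pair), and those lower in LAPC4-CR to 0 of 2; a larger pseudocount shrinks every change by construction. The cause of the other shifts was not tested. Keeping small RNA classes, an alternative chosen after seeing the data, changed no call of a granule gene. Counts of 6 to 25 limit what can be seen of SCG5 in all libraries and of SCG2 outside VCaP-CR. The same holds for CHGA and SCG3 outside VCaP and VCaP-CR, where CHGB had 17 to 34 counts.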

Other observations

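Neural markers were highest in different lines. INA (internexin alpha) had 18.0 scaled FPKM in parental VCaP, 36.7 in VCaP-CR and no more than 0.360 elsewhere, and NEFL (neurofilament light chain) at 7.44 and 10.1, against at most 1.72 elsewhere. NEFM (medium chain) was at 1.12 and 2.05, against at most 0.271 elsewhere. NEFH (heavy chain) went from 14 counts in VCaP to 160 in VCaP-CR. In VCaP its 0.375 scaled FPKM did not exceed the 0.396 of LNCaP, so its call between parental lines rests on VCaP-CR. These genes were chosen after their values were seen. Of 16 neural markers fixed in the lists, 5 were tested, and edgeR called 0 between states (0 at an unadjusted p under 0.05, 0 with DESeq2) and, without a filter, 8 of the 16 between parental lines, against 11.8% of all genes: NCAM2, UCHL1, DDC, DLL3, NEFL, NEFM, NEFH and INA. NCAM2, a relative of NCAM1, was at 45.4 scaled FPKM in LNCaP and 4.76 in LNCaP-abl. DDC, which makes dopamine and serotonin from their amino acid precursors, was at 7.47 in LNCaP and 44.0 in LNCaP-abl. DLL3, a Notch ligand of neuroendocrine tumours, was at 4.90 in VCaP and 1.28 in VCaP-CR. ST8SIA2 and ST8SIA4, the enzymes that add polysialic acid to NCAM1, were at most 0.378 and 0.671 in any library.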
